A study of Mus musculus with 6 samples.

Results

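Metabotropic glutamate receptors are the G protein-coupled receptors for glutamate, and 7 of their genes, Grm2 to Grm8, were followed among the 24060 genes of a count table from developing mouse retinal ganglion cells (RGCs). The members were found by gene symbol, and each matched 1 row. RGCs are the output neurons of the retina, whose axons form the optic nerve. They were purified from C57BL/6 mice at embryonic day 18 (E18, replicates 1, 3 and 4) and postnatal day 5 (P5, replicates 6, 8 and 9), without a further treatment or transgene in the labels. Retinas were dissociated with papain, depleted of macrophages and panned on antibodies to CD90 (Thy1), a surface protein of RGCs, and the sources used here give neither the number of animals in a sample nor whether samples shared a litter. The column of E18 replicate 1 also carries other numbers in its name, and whether it holds more than 1 preparation is not stated. RNA was sequenced, and the total count on genes was 81213639 to 114512853 per sample.

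The receptors of this family fall into groups by sequence and signalling. Group I, here Grm5, couples to Gq, which activates phospholipase C and releases calcium from internal stores. Group II (Grm2, Grm3) and group III (Grm4, Grm6, Grm7, Grm8) couple to Gi or Go, which lower cyclic AMP and act on potassium and calcium channels. Many group II and III receptors sit on axon terminals and reduce transmitter release, whereas Grm6 is known as the postsynaptic receptor of ON bipolar cells, which relay the photoreceptor signal to RGCs. Grm3 and Grm5 are also known from glia.

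The purity of the samples was examined with lists of marker genes. The 14 RGC markers summed to 9568 to 11337 CPM (counts scaled to TMM-normalized library sizes) at E18 and 9814 to 10998 at P5, and all were detected above a mean of 1 CPM. In the test described below, 4 of them were higher at E18, 4 were lower and 6 were not called. Counts of calls in this and the other marker lists stand beside 43.4% called over all genes tested. Thy1, the panning target, was lower at E18 (mean 247 against 553 CPM), and Isl1 was higher (557 against 260 CPM). The near-equal sums therefore do not show equal purity at both ages. Lists of photoreceptor (11 genes), microglial (10 genes) and horizontal cell markers (3 genes) summed to at most 12.8, 3.09 and 7.24 CPM in any library. The 9 oligodendrocyte genes summed to 93.3 to 93.8 CPM at E18 and 54.7 to 73.6 at P5, and the 8 endothelial and pericyte genes to 16.3 to 72.2 and 14.5 to 17.6. Most of the latter sum at E18 was Kdr, with 69.5, 62.9 and 14.1 CPM in E18 replicates 1, 3 and 4. Of the 6 endothelial and pericyte genes tested, Kdr was higher at E18, 3 (Pecam1, Tek and Rgs5) were lower and 2 were not called. E18 replicate 1 stood apart for genes of dividing cells (225 CPM over 10 genes, against 59.7 and 17.3 in E18 replicates 3 and 4 and 14.9 to 25.8 at P5). It also did so for 12 progenitor genes (299 CPM, against 137 and 43.2 and 25.9 to 38.6). E18 replicate 3 was highest for the amacrine genes Chat and Tfap2b. Calls are therefore given also without E18 replicates 1 and 3.

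Of the 7 receptor genes, Grm5, Grm4 and Grm7 were lower at E18 than at P5, and Grm2 was higher at E18. Grm3 and Grm8 did not pass the test, and Grm6 had too few reads to be tested. So 4 of the 6 genes tested were called, 1 higher and 3 lower, at a threshold of 0.05 for p-values adjusted over all genes (Benjamini-Hochberg), from the quasi-likelihood test in edgeR. Of all 16449 genes tested, 43.4% were called, 20.8% higher and 22.5% lower, so a call is common in this comparison. The median log2 fold change of E18 over P5 was -0.39 over the 6 receptors and 0.00 over all genes tested. The values of the E18 and P5 samples did not overlap for Grm5, Grm2 and Grm4, as was the case for 56.1% of all genes tested. Without E18 replicates 1 and 3, which left 1 E18 sample assumed to vary like the P5 samples, 9.48% of all genes and 0 of the receptors were called in edgeR, although 2 receptors had an unadjusted p under 0.05. In these bulk samples, a larger share of cells that express a gene and more RNA per cell cannot be told apart.

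**Figure D1:**
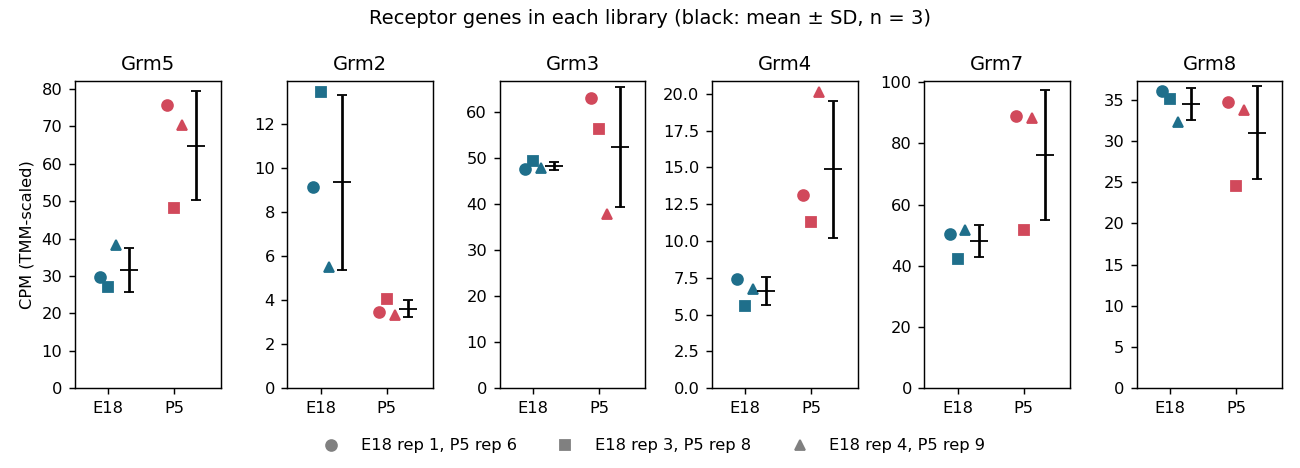
Level of 6 receptor genes in each library, in CPM on a linear axis that starts at 0, with E18 in blue, P5 in red, a symbol for each library and the mean ± SD (n = 3) in black. Every E18 library lies below every P5 library for Grm5 and Grm4 and above it for Grm2, while P5 replicate 8 lies low for Grm7 and Grm8. Symbols shared by both ages do not pair samples.

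Grm5, the group I receptor, is known as a postsynaptic receptor that is tied to the calcium store by Homer proteins. It had 29.7, 26.9 and 38.2 CPM in E18 replicates 1, 3 and 4. In P5 replicates 6, 8 and 9 it had 75.7, 48.2 and 70.5 CPM. All E18 samples lay below all P5 samples, and P5 replicate 8 was the nearest to them. The means were 31.6 ± 5.86 CPM at E18 and 64.8 ± 14.6 at P5 (SD, 3 samples per age), 2.05-fold higher at P5. The log2 fold change of E18 over P5 was -1.04 (standard error, SE, 0.189, 95% interval -1.46 to -0.61, adjusted p = 0.00320 in edgeR). The gene lies on chromosome 7 of mm10, 87584168 to 88134907, plus strand (ENSMUSG00000049583.15), and the exons of its RefSeq-matched transcripts cover 8143 bases, or 1.48% of that span. Without E18 replicates 1 and 3 the log2 fold change was -0.75 (adjusted p = 0.106 in edgeR).

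Of the group II receptors, Grm2 was called and Grm3 was not, and the difference between them was not tested. Grm2, known as a presynaptic autoreceptor, had 9.14, 13.5 and 5.49 CPM in E18 replicates 1, 3 and 4 and 3.45, 4.06 and 3.33 CPM in P5 replicates 6, 8 and 9. It varied widely at E18, with replicate 3 highest and replicate 4 lowest, and all of these samples were above those of P5. The means were 9.36 ± 3.99 CPM at E18 and 3.61 ± 0.394 at P5 (SD, 3 samples per age), 2.59-fold higher at E18. The log2 fold change was 1.37 (SE 0.295, 95% interval 0.70 to 2.04, adjusted p = 0.00660 in edgeR), and it was 1.02 without E18 replicate 3. Grm2 is a compact gene on chromosome 9, 106643095 to 106656082, minus strand (ENSMUSG00000023192.12). An antisense gene that is not in the table shares 448 bases with its exons, and since no source says whether reads were counted by strand, its reads cannot be told apart from those of Grm2.

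Grm3 had 47.6, 49.3 and 47.9 CPM in E18 replicates 1, 3 and 4, the smallest spread relative to the mean of any receptor tested. In P5 replicates 6, 8 and 9 it had 62.9, 56.2 and 37.8 CPM, so that the P5 samples lay on both sides of the E18 samples. The means were 48.2 ± 0.901 CPM at E18 and 52.3 ± 13.0 at P5 (SD, 3 samples per age). The log2 fold change was -0.12 (SE 0.168, adjusted p = 0.604 in edgeR), and its 95% interval, -0.50 to 0.27, does not reach a 2-fold difference in either direction. The value turned to 0.02 without P5 replicate 6, and without P5 replicate 9 it was -0.31 and passed (adjusted p = 0.0438 in edgeR, against 0.0438 to 0.926 over 13 alternatives). The gene lies on chromosome 5, 9485541 to 9725170, minus strand (ENSMUSG00000003974.6).

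The stretches just upstream of these group II genes are shown because, of these paralogs that signal through the same G proteins, one was called and the other was not. Each line gives the 250 bases before the RefSeq start site, 5′ to 3′ on the gene's own strand, in the build GRCm38.p6 (mm10), at chr9:106656110-106656359 for Grm2 and chr5:9725353-9725602 for Grm3, both on the minus strand. Capitals mark the GC box GGGCGG, a binding sequence of the Sp1 family, sought on both strands.
Grm2: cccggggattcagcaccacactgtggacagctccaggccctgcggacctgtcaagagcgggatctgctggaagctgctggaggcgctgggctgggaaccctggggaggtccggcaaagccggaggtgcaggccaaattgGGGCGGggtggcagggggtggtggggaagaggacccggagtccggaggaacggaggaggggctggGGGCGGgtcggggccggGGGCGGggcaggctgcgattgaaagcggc
Grm3: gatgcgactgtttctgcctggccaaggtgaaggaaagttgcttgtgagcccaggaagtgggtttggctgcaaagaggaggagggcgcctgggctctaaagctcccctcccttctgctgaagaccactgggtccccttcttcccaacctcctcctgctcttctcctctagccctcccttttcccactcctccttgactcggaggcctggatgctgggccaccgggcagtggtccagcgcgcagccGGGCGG
The Grm2 stretch holds 3 GC boxes and the Grm3 stretch 1, and 32.7% of 32851 promoter windows of the same length hold at least 1. Of the bases, 71.2% are G or C in the Grm2 stretch and 62.4% in the Grm3 stretch, against a median of 52.4% over all windows. They hold 16 and 8 CG dinucleotides, against a median of 6. The TATA box TATAAA is in neither and in 12.4% of all windows. The CCAAT box is found once in the Grm2 stretch, on the opposite strand and overlapping a GC box, not in the Grm3 stretch, and in 33.8% of all windows. Promoter sequences were matched for 5 of the 7 members.

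Among the group III receptors, Grm4 and Grm7 were lower at E18, and Grm8 was not called. Grm4, known from axon terminals, had 7.41, 5.56 and 6.76 CPM in E18 replicates 1, 3 and 4 and 13.1, 11.3 and 20.1 CPM in P5 replicates 6, 8 and 9. No E18 sample reached the P5 samples, and P5 replicate 9 was highest. The means were 6.58 ± 0.942 and 14.9 ± 4.66 CPM (SD, 3 samples per age), 2.26-fold higher at P5, with a log2 fold change of -1.18 (SE 0.224, 95% interval -1.69 to -0.67, adjusted p = 0.00393 in edgeR). It was -0.90 without P5 replicate 9, and -1.13 without E18 replicates 1 and 3 (adjusted p = 0.0673 in edgeR). Grm4 lies on chromosome 17, 27422387 to 27521403, minus strand (ENSMUSG00000063239.17).

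Grm7, a receptor of the presynaptic active zone, had 50.5, 42.2 and 51.7 CPM in E18 replicates 1, 3 and 4. In P5 replicates 6, 8 and 9 it had 89.0, 51.6 and 88.2 CPM. P5 replicate 8 fell within the E18 range, just below E18 replicate 4, and the other P5 samples stood well above it. The means were 48.1 ± 5.13 and 76.3 ± 21.3 CPM (SD, 3 samples per age), 1.58-fold higher at P5. The log2 fold change was -0.66 (SE 0.198, 95% interval -1.11 to -0.21, adjusted p = 0.0257 in edgeR). The call was lost when E18 replicate 1, E18 replicate 3, P5 replicate 6 or P5 replicate 9 was left out, with adjusted p of 0.0525, 0.0945, 0.0970 and 0.0852 in edgeR. Without both E18 replicates 1 and 3 the log2 fold change was -0.55 (adjusted p = 0.268). Grm7 spans chromosome 6, 110645581 to 111567230, plus strand (ENSMUSG00000056755.13), and its exons cover 0.455% of that span. An antisense gene outside the table shares 130 bases with them.

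Grm8, also a presynaptic receptor, had 36.0, 35.1 and 32.3 CPM in E18 replicates 1, 3 and 4 and 34.7, 24.5 and 33.8 CPM in P5 replicates 6, 8 and 9. The samples overlapped, and P5 replicate 8 alone stood below the rest. The log2 fold change was 0.15 (SE 0.141, 95% interval -0.17 to 0.47, adjusted p = 0.412 in edgeR), and it was -0.01 without P5 replicate 8. The gene lies on chromosome 6, 27275119 to 28135178, minus strand (ENSMUSG00000024211.15).

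Grm6 was barely detected. It had 3 reads in each E18 sample and 0, 1 and 2 reads in P5 replicates 6, 8 and 9, at or under the limit of 3 reads that a count of 0 allows, which was 0.0268 to 0.0362 CPM in these libraries. A difference between the ages was not detectable at this depth. Grm6 lies on chromosome 11, 50850685 to 50866208, plus strand (ENSMUSG00000000617.14), and an antisense gene outside the table shares 296 bases with its exons.

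**Figure D2:**
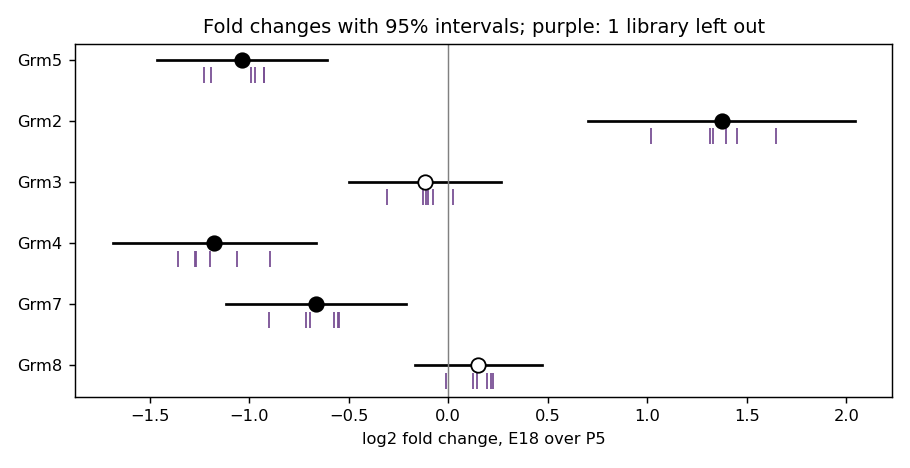
Log2 fold change of E18 over P5 for the 6 receptors tested, with the 95% interval of the edgeR fit as a line, filled points for genes that were called and open points for the others. Purple ticks give the value with 1 library left out, which stayed on its side of 0 for the 4 called genes and crossed it for Grm3 and Grm8.

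Levels were compared between receptors after division by the exon length of the RefSeq-matched transcripts, in CPM per kilobase. At E18 the order was Grm3 (15.8 ± 0.296, SD, n = 3), Grm7 (11.5 ± 1.22), Grm8 (8.94 ± 0.499), Grm5 (3.88 ± 0.720), Grm2 (1.99 ± 0.847), Grm4 (1.31 ± 0.188) and Grm6 (0.00739 ± 0.00111). Neighbours in this order did not overlap in their samples, except Grm2 and Grm4. At P5 the order of these levels was Grm7 (18.2 ± 5.09), Grm3 (17.2 ± 4.27), Grm8 (8.05 ± 1.47), Grm5 (7.96 ± 1.79), Grm4 (2.97 ± 0.932), Grm2 (0.767 ± 0.0836) and Grm6 (0.00242 ± 0.00246). Here Grm7 overlapped Grm3, and Grm8 overlapped Grm5. Grm2 stood above Grm4 in mean level at E18, and below it, without overlap, at P5. With lengths taken over the exons of every annotated transcript, the order of the means at E18 was the same. At P5, Grm3 (17.2) then came before Grm7 (13.0) and Grm5 (6.33) before Grm8 (3.14). So the order within these 2 pairs at P5 rests on the length chosen. The lack of overlap of Grm5 with Grm8 and with Grm2 at E18 also rests on it. With the longer lengths, Grm5 exceeded Grm8 in E18 replicate 4 (11.1% and 9.68% of the summed level of the 7 genes). Grm2 exceeded Grm5 in E18 replicate 3 (8.28% and 7.92%).

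The make-up of the family can be read from each receptor's share of the summed CPM per kilobase of the 7 genes. The sum was 44.1, 42.6 and 43.6 in E18 replicates 1, 3 and 4 and 63.5, 46.1 and 55.6 in P5 replicates 6, 8 and 9. Grm3, Grm7 and Grm8 together made up most of it at both ages. The share of Grm5 was 8.93% ± 1.60 at E18 and 14.4% ± 1.39 at P5, and that of Grm4 was 3.02% ± 0.384 and 5.43% ± 1.62 (SD, 3 samples per age). The share of Grm8 was 20.6% ± 1.19 at E18 and 14.6% ± 1.06 at P5, and that of Grm2 was 4.59% ± 2.02 and 1.43% ± 0.384 (SD, 3 samples per age). The samples of the ages did not overlap in these 4 shares, also with lengths over the exons of every transcript. With those lengths the share of Grm8 was 10.4% at E18 and 7.32% at P5, and that of Grm3 was 47.1% and 40.3%. The shares of Grm3 (36.5% ± 1.31 and 31.6% ± 8.86) and Grm7 (26.4% ± 2.43 and 32.6% ± 5.62) overlapped. By signalling group, group II held 38.7% to 44.6% at E18 and 23.6% to 41.8% at P5, and group III held 47.6% to 51.9% and 45.3% to 60.9%. The shares of 1 library sum to 100% and so are not independent of each other.

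**Figure D3:**
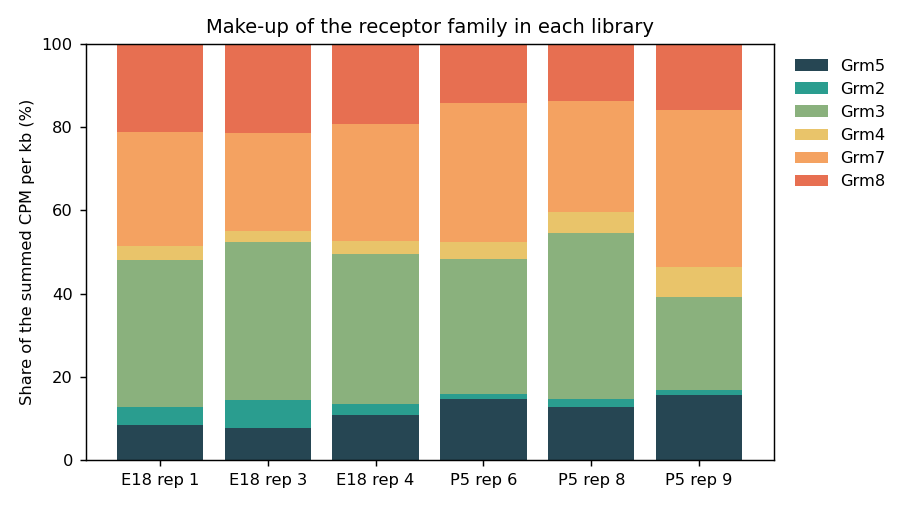
Share of each receptor in the summed CPM per kilobase of the 7 receptors, in percent, for each library, with Grm6 left out of the drawing since its share was at most 0.0190%. Grm5 and Grm4 take larger shares in every P5 library than in every E18 library, and Grm8 and Grm2 smaller ones.

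Within a library, the ratio of 2 receptors does not depend on library size. On the level per kilobase, Grm5 was 0.205 to 0.299 of Grm3 at E18 and 0.321 to 0.698 at P5. Within group II, Grm2 was 0.0742 to 0.177 of Grm3 at E18 and 0.0355 to 0.0570 at P5. Within group III, Grm7 was 1.11 to 1.47 of Grm8 at E18 and 1.93 to 2.40 at P5, although Grm7 alone overlapped between the ages. Grm4 was 0.122 to 0.161 of Grm8 at E18 and 0.291 to 0.459 at P5. With lengths over the exons of every transcript, Grm7 was 2.03 to 2.69 of Grm8 at E18 and 3.54 to 4.38 at P5. Grm4 was then 0.262 to 0.346 of Grm8 at E18 and 0.626 to 0.986 at P5. So the size of these ratios rests on the length chosen. A change of length scales a ratio by the same factor in every library, so it cannot alter the separation by age and is no check of it. These pairs were chosen after the values were seen, and no test was made of them.

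Genes that mark amacrine cells, the inhibitory interneurons of the inner retina, were compared with Grm2. Over the E18 samples, 7 of 9 had the order of Grm2 (replicate 3 highest, replicate 4 lowest). The other genes were Tfap2c, highest in replicate 1, and the glycine transporter gene Slc6a9, highest in replicate 4. Few orders are possible among the E18 samples, and the share of all genes with this order was not counted. So the count alone does not tell whether Grm2 goes with these genes. Each of the 9 genes was detected in some sample, and 8 were tested. Of those, 4 were higher at E18 and 4 were not called, against 43.4% called and 20.8% higher over all genes tested. The 9 genes summed to 97.8, 200.1 and 15.4 CPM in E18 replicates 1, 3 and 4 and 20.1 to 29.4 CPM at P5, so that E18 replicate 4 lay below the P5 samples. Chat, the acetylcholine synthesis enzyme of starburst amacrine cells, had 5.59, 10.9 and 0.287 CPM in E18 replicates 1, 3 and 4 and 0.237 to 0.797 at P5. Tfap2b, an amacrine transcription factor, had 47.5, 119 and 1.62 CPM and 1.02 to 1.55 at P5. In E18 replicate 4, where Chat was in the P5 range, Grm2 had 5.49 CPM, above the 3.33 to 4.06 CPM of the P5 samples. Without E18 replicates 1 and 3, the log2 fold change of Grm2 was 0.61 (adjusted p = 0.240 in edgeR, against 6.47e-06 to 0.240 over 13 alternatives, DESeq2 included). The part of amacrine cells in the difference in Grm2 was not tested.

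**Figure D4:**
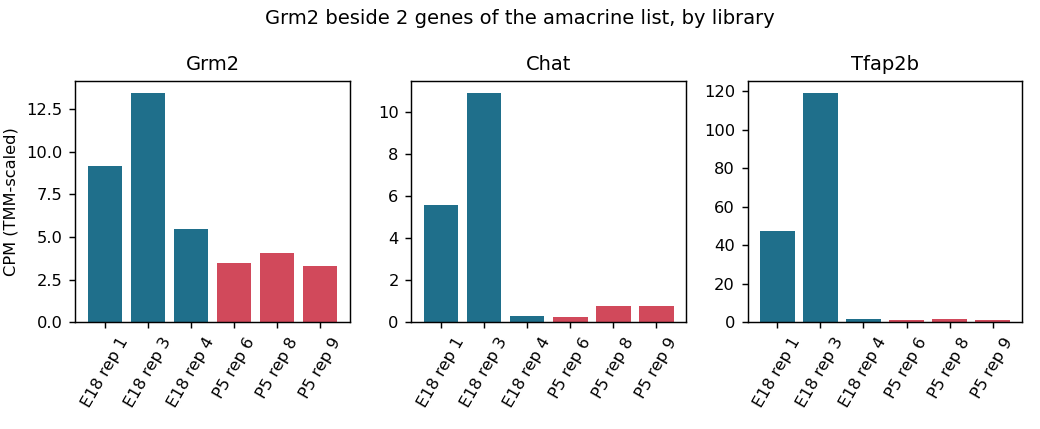
Level in each library, in CPM on linear axes that start at 0, of Grm2 and 2 genes of the amacrine list chosen after their values were seen, with E18 in blue and P5 in red. Chat and Tfap2b follow the order of Grm2 within E18 and are low in E18 replicate 4, where Grm2 has 5.49 CPM.

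For the receptors that glia also express, the 11 markers of Müller glia and astrocytes summed to 499.6 to 602 CPM at E18 and 475 to 512 at P5. Glul, Dkk3 and Vim made up 94.97% to 98.1% of the sum in every library, and the other 8 genes together 9.51 to 30.3 CPM. Of 10 tested, 3 were higher at E18 (Glul, Vim and Sox9) and 1 was lower (Dkk3). The astrocyte markers Gfap and Aqp4 were at most 0.117 and 0.410 CPM in any library. The genes of this list did not move together over the E18 samples. Slc1a3, a glial glutamate transporter, had 16.2, 2.80 and 0.475 CPM in E18 replicates 1, 3 and 4 and 1.11 to 1.78 at P5. In the same E18 samples Glul had 326, 323 and 313 CPM, Dkk3 152, 121 and 95.1 CPM, and Aldh1l1 2.77, 2.85 and 3.10 CPM. P5 replicate 8, the lowest P5 sample for Grm5, Grm7, Grm8 and Grm4, had the highest sums of dividing-cell (25.8 CPM) and progenitor genes (38.6 CPM) among the P5 samples. The part of these cells in the values was not tested.

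The listed genes of receptor signalling were mostly lower at E18. Of 71 genes in 7 lists, each counted once, 51 were called (71.8%, against 43.4% of all genes tested), 8 higher and 43 lower at E18. The median log2 fold change was -0.56, against 0.00 over all genes. These lists were chosen with earlier results of these data known, so the larger share called is not independent evidence about such genes. The count of higher genes was 4 without E18 replicate 3 and 4 without P5 replicate 6. In either direction, 37 and 44 of the 71 genes were called in those fits, against 4575 of 16775 and 5589 of 16716 of all genes tested. Without E18 replicates 1 and 3, 20 genes were called, 1 higher and 19 lower, against 9.48% of all genes, and Plcb3 was the higher one. Of the genes chosen by the rule for naming, Adcy6, Dlgap4, Glul, Gnb3, Homer3, Rgs9bp, Slc1a2, Adrbk1, Homer1, Slc17a7 and Trpm1 lost their call in that fit. No test compared the lists with other genes, and fold changes below are E18 over P5, and adjusted p is that of the edgeR fit.

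Downstream of group I, 9 of 12 Gq effector genes were called, 8 lower and 1 higher (median log2 fold change -0.75). Itpr1, the receptor that releases stored calcium, had 10.6 ± 1.21 CPM at E18 and 62.9 ± 27.1 CPM at P5 (SD, 3 samples per age), a log2 fold change of -2.56 (SE 0.292, adjusted p = 0.000477). Plcb1, a phospholipase C that Gq activates, had 56.2 ± 4.23 and 234.9 ± 23.8 CPM, a log2 fold change of -2.06 (adjusted p = 3.31e-05). Another phospholipase C, Plcb3, was higher at E18, with 40.6 ± 5.78 and 17.03 ± 2.14 CPM (log2 fold change 1.25, adjusted p = 0.000454). The other phospholipase C beta genes of the list, Plcb2 and Plcb4, were lower at E18, with log2 fold changes of -1.68 and -0.64 (adjusted p = 0.0206 and 0.00544), so that 3 of 4 were lower. Of the Gq-class alpha subunits, Gna11 was lower at E18, with 63.6 ± 4.85 and 114.9 ± 16.9 CPM (log2 fold change -0.85, adjusted p = 0.00125), and Gnaq did not pass, with 185.6 ± 5.44 and 178.5 ± 15.4 CPM (log2 fold change 0.06, adjusted p = 0.646).

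Of 12 genes of Homer proteins and scaffolds, which bind group I receptors directly or through each other, 7 were lower at E18, 2 were higher and 3 were not called (median log2 fold change -0.35). Homer2 was lower, with 22.6 ± 0.849 CPM at E18 and 72.1 ± 8.60 at P5 (log2 fold change -1.67, adjusted p = 7.72e-05), and Homer1 was lower by less, with 76.7 ± 4.01 and 91.6 ± 5.92 CPM (log2 fold change -0.26, adjusted p = 0.0479). The call of Homer1 was lost in DESeq2, without the filter on low counts, and without E18 replicate 1, 3 or 4 or P5 replicate 6. Homer3 was higher at E18, with 32.5 ± 1.52 and 20.5 ± 7.25 CPM (log2 fold change 0.67, adjusted p = 0.0330), and its call was lost without any 1 of the samples other than P5 replicate 8. The scaffold gene Dlgap1 was lower (log2 fold change -1.26, adjusted p = 0.00146), and its relative Dlgap4 was higher (0.48, adjusted p = 0.00193). The call of Dlgap4 was lost without E18 replicates 1 and 3 (0.50, adjusted p = 0.104).

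For groups II and III, 10 of 12 Gi and Go effector genes were called, 9 lower and 1 higher (median log2 fold change -0.69). Kcnj6, a potassium channel subunit opened by these G proteins, had 0.478 ± 0.0585 CPM at E18 and 2.90 ± 0.740 at P5 (log2 fold change -2.60, adjusted p = 0.000354). Adcy8, an adenylyl cyclase, had 1.43 ± 0.252 and 4.76 ± 1.13 CPM (log2 fold change -1.74, adjusted p = 0.00106). Adcy6, a cyclase that Gi inhibits, was higher at E18 (log2 fold change 0.43, adjusted p = 0.0266), a call lost without E18 replicate 3, E18 replicate 4, P5 replicate 6 or P5 replicate 9.

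Of 10 partner genes of group III receptors, 6 were lower at E18 and 4 were not called (median log2 fold change -0.54). Elfn1 and Elfn2 encode adhesion proteins that bind group III receptors across the synapse. Elfn1 had 2.65, 1.47 and 1.69 CPM in E18 replicates 1, 3 and 4 and 28.7, 19.5 and 54.0 in P5 replicates 6, 8 and 9, a fitted difference of 17.7-fold (log2 fold change -4.14, SE 0.404, adjusted p = 0.000271). Elfn2 had 9.30 ± 2.37 and 26.2 ± 4.30 CPM (log2 fold change -1.49, adjusted p = 0.000871). Neither overlapped between the ages, as was so for 56.1% of all genes tested. Of the group III receptors tested, Grm4 did not overlap either, whereas Grm7 and Grm8 did.

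**Figure D5:**
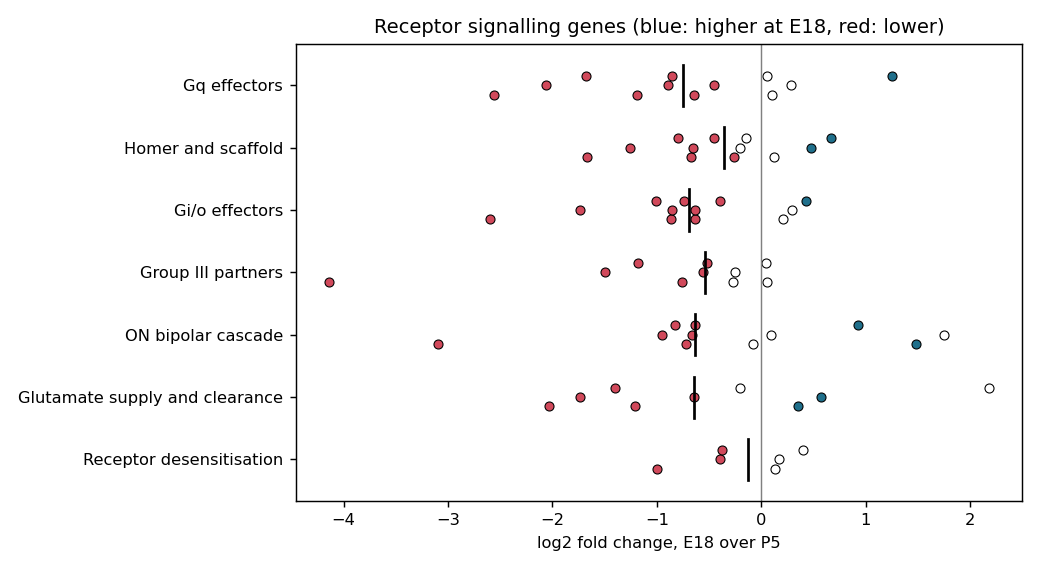
Log2 fold change of E18 over P5 for each gene of the 7 lists of receptor signalling, with genes called higher in blue, lower in red and not called in white, and a black bar at the median of each list. The medians lie between -0.75 and -0.12, and Gnao1 is drawn in the lists of Gi/o effectors and of the ON bipolar cascade.

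The partners of Grm6 in ON bipolar cells form a list of 11 genes, of which 6 were lower at E18, 2 higher and 3 not called (median log2 fold change -0.64). Trpm1, the channel that Grm6 closes, had 2.43 ± 0.408 CPM at E18 and 4.30 ± 0.717 at P5 (log2 fold change -0.82, adjusted p = 0.0142), a call lost without E18 replicate 1 or 3. Gng13, a G protein subunit, had 0.238 ± 0.0866 and 2.02 ± 0.953 CPM (log2 fold change -3.09, adjusted p = 0.00128). Gnb5, which forms a complex with regulators of G protein signalling in many neurons, was lower as well (-0.95, adjusted p = 0.00124). Gnb3 and Rgs9bp were higher, with log2 fold changes of 1.48 and 0.93 (adjusted p = 0.0186 and 0.0268). The call of Gnb3 was lost without E18 replicate 1 or P5 replicate 6, its log2 fold change was 0.49 without E18 replicates 1 and 3, and the call of Rgs9bp was lost without any 1 of the samples other than P5 replicate 8. The 11 ON bipolar markers, which do not include Grm6, summed to 53.1 to 77.6 CPM at E18 and 73.5 to 104.5 at P5, mostly from Prkca, which is not particular to these cells. Their means were under 1 CPM for 5 genes, and none was at 0 in all samples.

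Of 9 genes that supply and clear glutamate, 5 were lower at E18, 2 higher and 2 not called (median log2 fold change -0.64). Slc17a6, the vesicular transporter that marks RGCs as glutamatergic, had 282 ± 30.7 CPM at E18 and 744 ± 205 CPM at P5 (SD, 3 samples per age), a log2 fold change of -1.40 (SE 0.190, adjusted p = 0.000931). The other vesicular transporters were at lower levels, with Slc17a8 at 3.18 ± 0.304 and 10.6 ± 0.910 CPM (log2 fold change -1.73, adjusted p = 0.000206) and Slc17a7 at 0.297 ± 0.0911 and 1.21 ± 0.958 CPM (-2.04, adjusted p = 0.0174). The call of Slc17a7 was lost without E18 replicate 3, and its log2 fold change was -1.16 without P5 replicate 9, its highest sample. Slc1a2, a glutamate uptake transporter, and Glul, glutamine synthetase, were higher at E18, with log2 fold changes of 0.58 and 0.35 (adjusted p = 0.00787 and 0.0138). The call of Glul was lost without E18 replicate 3, and that of Slc1a2 without E18 replicates 1 and 3 together (0.45, adjusted p = 0.254). Against 43.4% of all genes tested that were called, 3 of 6 genes of receptor desensitisation were lower and 3 were not called (median log2 fold change -0.12). Those of the receptor kinases Adrbk2 and Adrbk1 had log2 fold changes of -0.997 and -0.40 (adjusted p = 0.000360 and 0.0214), and the call of Adrbk1 was lost without E18 replicate 1, E18 replicate 3 or P5 replicate 9.

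The genes most like each receptor were taken as those with the smallest root mean square difference in log2 CPM, each gene centred on its own mean over the 6 samples, over the 13426 genes that averaged 1 CPM or more. For Grm5 these were Ldb2 (0.0538 on the log2 scale) and Gm20300 (0.0574), against a root mean square deviation of 0.564 of Grm5 itself. For Grm2 they were Pram1 (0.130) and Slc25a18 (0.148), farther away than for any other receptor, against 0.693. Grm3 was nearest to Fam122b (0.0636) and Sh3gl3 (0.0722), and Grm4 to Bcar3 (0.0884) and Apold1 (0.0885). Grm7 was nearest to Ido2 (0.0617) and Adam12 (0.0669), and Grm8 to Slc26a11 (0.0375) and Pex11g (0.0460). Each likeness rests on 6 samples in 2 ages.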

How the data were processed

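RNA-seq libraries of immunopanned RGCs, 3 from E18 and 3 from P5, were compared, with the ages and replicate numbers taken from the sample titles. The authors depleted ribosomal RNA, aligned paired-end reads with STAR to the mouse genome mm10, used HT-seq to count those on RefSeq genes, and deposited the raw counts. The sample labels name polyA RNA instead of depletion, and the submitters' processing notes name CASAVA 1.8.2. The other columns deposited by the authors, which were not used, are normalized counts (a signal scaled for library size), a rank score by mean normalized count, log2 fold changes, and p-values with false discovery rates of the authors' own comparison.

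The counts were filtered by expression and TMM-normalized, and edgeR 4.0.16 (R 4.3.3) gave a quasi-likelihood test from a model fitted across all 16449 genes that passed the filter, with Benjamini-Hochberg adjustment. Standard errors and 95% intervals belong to that model. The test was tried on simulated counts first. Between samples of one age, chi-square per degree of freedom was 30.5 to 141, more than sampling noise alone gives. So none looked like the same library sequenced again, but this cannot show that samples came from separate animals or preparations. The labels do not say that samples came from separate animals or litters, so p-values measure the spread between these samples. Reads are not independent molecules, so the limit of 3 reads covers counting error only.

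Gene coordinates and exon lengths are from GENCODE M21 (mm10), promoters from RefSeq (GRCm38.p6). No stretch of 50 bases in the members' transcripts occurs in a transcript of another gene. How reads that map to several genes were handled and the strand setting are not stated. Members and lists were chosen with earlier results of these data known. Named were the 7 members, up to 4 called genes a list with the largest rises and falls, 7 genes set by name (Elfn1, Elfn2, Homer1, Homer2, Homer3, Trpm1, Slc17a6) and the 2 nearest genes of each member with a mean of at least 1 CPM. Other genes were named after their values were seen. For the nearest genes, 0.5 was added to CPM before log2. The alternatives were DESeq2 1.42.0, other edgeR tests, another normalization, other filters and leaving out samples. One gene of the amacrine marker list is not reported here and was left out of its counts and sums.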

Additional observations from a re-analysis of the deposited data

How the results depend on the processing

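No paired analysis was possible because the ages share no replicate number. The same 4 receptors were called with the same signs under DESeq2, the likelihood ratio and exact tests of edgeR, and upper-quartile normalization. Both other filters on low counts also kept these calls and signs. A call was common over all genes in these fits too. DESeq2 called 7682 of 17870 genes tested, the likelihood ratio test 7454 of 16449 and the exact test 7398 of 16449. Upper-quartile normalization gave 7169 of 16449, leaving out the filter 7147 of 21649, and the stricter filter 6251 of 13428. So the kept calls alone do not set the receptors apart from other genes. With each sample left out in turn, 3 to 4 receptors were called, and Grm2, Grm4 and Grm5 were among them each time. Calls over all genes also moved with the sample left out. They ranged from 4575 of 16775 genes tested (without E18 replicate 3) to 8796 of 16761 (without P5 replicate 8). The log2 fold changes in these leave-one-out fits were 0.0233 (without P5 replicate 6) and otherwise as low as -0.31 (without P5 replicate 9) for Grm3. They were -0.90 to -0.55 for Grm7. They were -0.0104 (without P5 replicate 8) to 0.22 for Grm8. The genes of the signalling lists called were 37 to 53, and those higher at E18 4 to 9.

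Without E18 replicates 1 and 3, a fit added after the data were seen that leaves a lone E18 sample, edgeR's quasi-likelihood test called 0 receptors, 0 higher and 0 lower, although 2 had an unadjusted p under 0.05, and it called 1633 of 17227 genes. DESeq2 was not run on these samples. The log2 fold changes of Grm2, Grm4, Grm5 and Grm7 were 0.61, -1.13, -0.75 and -0.55, and 20 genes of the signalling lists were called, 1 higher and 19 lower. With lengths over the exons of every transcript, added after the data were seen, levels in CPM per kilobase were 1.10 for Grm4, 3.09 for Grm5, 0.00591 for Grm6, 8.18 for Grm7 and 3.48 for Grm8 at E18, and 12.96 for Grm7 and 3.14 for Grm8 at P5. Scaling by raw library totals moved no level by more than 1 SD. The depth limits Grm6 alone among the receptors. With these lengths the share of Grm8 at both ages and that of Grm3 at E18 moved by more than 1 SD.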
